A study of Mus musculus with 3 samples.

Results

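The macrophage lineage transcription factors are DNA-binding proteins that set up or maintain the identity of macrophages, the tissue-resident phagocytes of the immune system. They were taken as the rows of the deposited gene table named Spi1, Irf8, Cebpa, Cebpb, Maf, Runx1, Nr1h3, Zeb2 and Klf4. These are 9 of the 57180 genes in the table, and all 9 had a count in every library. The libraries came from cells of the mouse vestibule, the part of the inner ear that senses balance, that looked like black balls. The labels call them macrophages and immune cells of WT genotype, while the series title speaks of melanocytes. Messenger RNA with a poly(A) tail was amplified from a total of 18 cells of 9 mice, with 3 mice in each group, by SMART-Seq HT, a method for small amounts of RNA, and sequenced on an Illumina NovaSeq. There was 1 group with 3 libraries, called replicates 1, 2 and 3, and no control. The strain, age and sex of the mice and the division of the cells among libraries are not given in the sources used here. It can therefore not be told whether each library stands for a group of 3 mice.

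In blood formation, RUNX1 acts early, in the making of blood stem cells, and then turns on the gene for PU.1 (Spi1). PU.1 and C/EBPα (Cebpa) open the genes that commit a progenitor to the myeloid line, and IRF8 and KLF4 act in the formation of monocytes. ZEB2, MAF, C/EBPβ and LXRα (Nr1h3) act later, in the identity and lipid handling of mature macrophages. None of the 9 genes is private to macrophages: Klf4 is also active in epithelia, Zeb2 in cells of the neural crest and its glia, Maf in lens and some neurons, and Spi1 and Irf8 in B cells.

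The libraries held between 14095521 and 18460546 counts, and between 22094 and 22376 genes with a count. Macrophage markers were present, with 15 of 18 called above 1 TPM by the test described below and a summed level between 5794 and 9010 TPM (a transcript's share of its library after correction for gene length). Markers of other cells were called too, where 37.6% of all genes tested and 50.5% of the protein-coding genes were. Calls were made for 9 of 15 melanocyte, 8 of 10 fibroblast, 11 of 12 epithelial, 9 of 12 hair cell, 8 of 11 Schwann cell and glial and 5 of 7 erythroid markers, each a larger share than those. The 5 of 10 neuronal, 3 of 10 neutrophil, 2 of 10 endothelial and 1 of 10 monocyte markers called were no larger a share than that of protein-coding genes. A level in these libraries can therefore not be assigned to one cell type, and fewer cells of a type and less RNA per cell cannot be told apart.

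Maf was the most abundant of the 9 and Runx1 the least. Each gene's mean of log2(TPM + 1) over the 3 libraries was tested against 1 TPM with limma's moderated test, one-sided, and p-values were adjusted by Benjamini-Hochberg over the 27265 genes that any library detected. Maf, Cebpb, Klf4, Spi1 and Nr1h3 stood above 1 TPM at an adjusted p under 0.05, and Irf8, Zeb2, Cebpa and Runx1 did not pass. These 5 of 9 members compare with 37.6% of all genes tested and 50.5% of the protein-coding genes. All 9 members had a count in all 3 libraries. When the 18083 genes of that kind were tested alone, 64.7% were called, and again 5 members. The 5 of 9 members are a smaller share than that. The counts of called genes in each gene family below are to be read against the shares of 37.6% and 50.5%. Against 10 TPM, Maf alone passed, 1 of 9 members, where 14.7% of all genes tested and 19.2% of the protein-coding ones did. The members' median was 2.35 on the log2(TPM + 1) scale, against 2.32 for protein-coding genes and 1.49 for all genes tested. The labels do not tie a library to named animals, so the spread that these p-values measure is that of the libraries and may be technical.

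**Figure D1:**
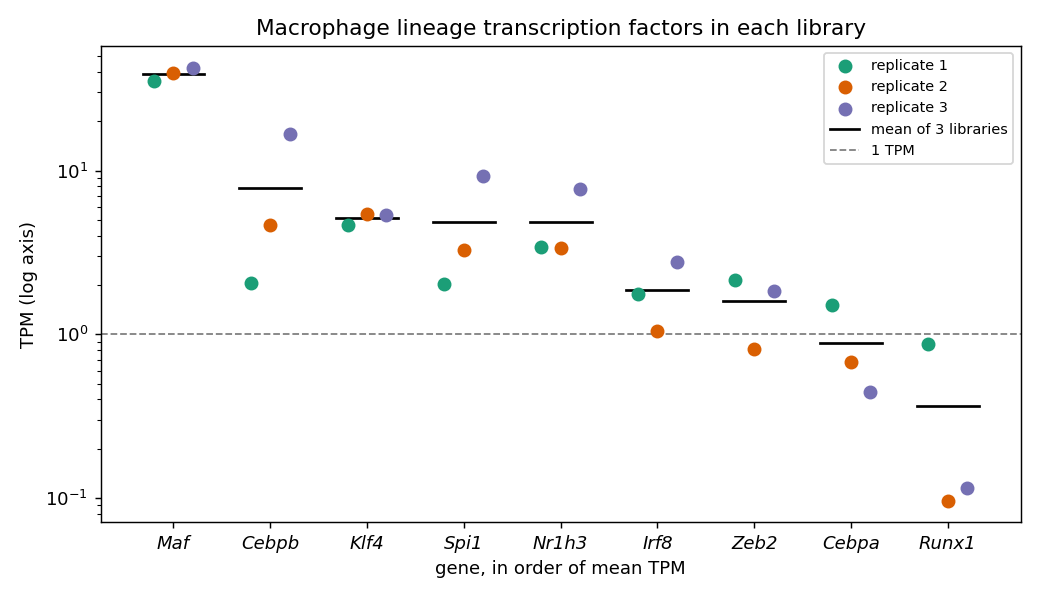
TPM of the 9 factors on a log axis, with 1 point per library, a bar at the mean of the 3 libraries and a dashed line at 1 TPM. Maf lies between 35.0 and 42.6 TPM in every library and above each other factor, while the points of Cebpb and Runx1 are spread over the widest range.

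MAF (c-Maf) is a leucine zipper protein that holds macrophages in a mature, non-dividing state and is high in resident macrophages of many tissues. Maf (chromosome 8, 116409681 to 116434533 on GRCm39) had 2490, 2538 and 2699 counts in replicates 1, 2 and 3. Its level was 35.0, 39.2 and 42.6 TPM, a mean of 38.9 ± 3.78 TPM (SD, n = 3, as for all values below), with a limma adjusted p of 2.25e-05 against 1 TPM and 0.00114 against 10 TPM. The 3 libraries were close together, and Maf made up 65.5%, 67.0% and 49.0% of the summed TPM of the 9 factors. Maf also took most of its family's summed level, with 83.3%, 86.3% and 55.1% of the TPM of the 7 MAF genes. Among the 73 genes in the family lists of the 9 factors, 2 had a higher mean level than Maf, namely Ddit3 and Klf9.

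KLF4 is a zinc finger protein needed for monocyte formation and for the anti-inflammatory state of macrophages, and it also drives epithelial differentiation. Klf4 (chromosome 4, 55527143 to 55532466) was the steadiest factor, with 152, 161 and 156 counts and 4.64, 5.40 and 5.34 TPM. Its mean was 5.13 ± 0.423 TPM, with a limma adjusted p of 0.00696. Of the 16 KLF genes, 10 were called above 1 TPM, and Klf4 ranked 10 by mean level. Klf9 at 44.5 ± 6.75, Klf15 at 22.5 ± 11.6, Klf5 at 16.4 ± 6.06 and Klf6 at 14.6 ± 4.20 TPM led the family. Klf2, which keeps myeloid and endothelial cells quiescent, was uneven at 4.16, 0.641 and 21.3 TPM, and the difference of Klf4 minus Klf2 changed sign between libraries. Maf and Klf4 passed the test against 1 TPM under each of the 14 alternative settings tried, and no other factor did.

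PU.1, the ETS protein that all macrophages depend on, is encoded by Spi1 (chromosome 2, 90912735 to 90946101). Spi1 had 65, 96 and 267 counts and 2.02, 3.28 and 9.31 TPM. Replicate 3 was far above the others, and the mean was 4.87 ± 3.90 TPM. The call was borderline, with a limma adjusted p of 0.0499, and it was lost without any one library, at 0.0511, 0.0553 and 0.217 without replicates 1, 2 and 3. Of the 20 ETS genes listed, 6 were called above 1 TPM. Elf1 was highest at 13.6 ± 5.81 TPM, followed by Gabpa at 8.39 ± 2.64 and Etv6 at 4.90 ± 2.66 TPM, with Spi1 ranked 4. Spib, the close relative of Spi1 in B cells and plasmacytoid dendritic cells, had no count in any library, which allows up to 0.163, 0.199 and 0.213 CPM (counts per library total, with no gene length) at a limit of 3 counts. Spic, the relative of red pulp macrophages, stood at 0, 1.47 and 0.0300 TPM.

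C/EBP proteins are leucine zipper factors, of which C/EBPα acts in granulocyte and monocyte progenitors and C/EBPβ in monocytes and activated macrophages. Cebpb (chromosome 2, 167530835 to 167532338) had 23, 47 and 167 counts and 2.06, 4.62 and 16.8 TPM. Its mean of 7.82 ± 7.86 TPM was second among the factors, but the SD was as large as the mean. The limma adjusted p was 0.0355, and 0.137 without replicate 3. Cebpb shares 908 bp with Peds1, an enzyme gene of plasmalogen synthesis that lies on the other strand and had 519, 274 and 750 counts. In the GENCODE M21 annotation 312 bp of this is exon of both genes. The sources used here do not give whether the authors counted by strand, so reads of Cebpb and Peds1 in that stretch cannot be told apart.

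Cebpa (chromosome 7, 34818718 to 34821353) was low, with 54, 22 and 14 counts and 1.52, 0.680 and 0.442 TPM. Replicate 1 alone was above 1 TPM, the mean was 0.881 ± 0.566 TPM, and the limma adjusted p was 1. On the log2(TPM + 1) scale Cebpa minus Cebpb averaged -1.88 ± 1.68 and was below 0 in each library. Other genes of the family were more abundant than both. Ddit3, the stress-induced CHOP, averaged 160 ± 10.8 TPM, Cebpd 19.4 ± 4.67 and Cebpg 9.59 ± 5.08 TPM. Cebpe, the late granulocyte member, had no count. In all, 4 of the 6 C/EBP genes were called above 1 TPM.

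LXRα, encoded by Nr1h3, is a nuclear receptor for oxidised cholesterol that works as a dimer with an RXR and is enriched in macrophages. Nr1h3 (chromosome 2, 91014406 to 91033179) had 132, 118 and 264 counts and 3.43, 3.37 and 7.70 TPM. Replicates 1 and 2 were alike and replicate 3 was more than both, with a mean of 4.83 ± 2.48 TPM and a limma adjusted p of 0.0204. That p was 0.0553 without replicate 1 and 0.0981 without replicate 3. The widely expressed LXRβ gene Nr1h2 averaged 11.9 ± 6.26 TPM, and on the log2(TPM + 1) scale Nr1h3 minus Nr1h2 was -1.07 ± 0.67, below 0 in 3 of 3 libraries. Rxra, the partner, averaged 5.66 ± 1.84 TPM, and its difference from Nr1h3 changed sign between libraries. Of the 8 LXR, RXR and PPAR genes, 3 were called above 1 TPM, namely Nr1h2, Rxra and Nr1h3. Within Nr1h3 lies the noncoding gene Gm13783, with 0, 34 and 0 counts.

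IRF8 is an interferon regulatory factor that pairs with PU.1 on DNA and is needed for monocytes, dendritic cells and microglia. Irf8 (chromosome 8, 121463097 to 121483433) had 116, 63 and 162 counts and 1.76, 1.05 and 2.76 TPM. All 3 libraries were above 1 TPM, but the mean of 1.86 ± 0.858 TPM did not pass (limma adjusted p = 0.316). Irf8 ranked 8 of the 9 IRF genes, 5 of which were called. The interferon pathway members Irf7, Irf9 and Irf3 averaged 12.7 ± 4.35, 12.4 ± 3.79 and 7.73 ± 3.64 TPM. Irf4, which stands in for IRF8 in lymphocytes and some dendritic cells, stood at 0, 0 and 2.09 TPM.

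ZEB2 is a zinc finger repressor that keeps tissue macrophages in their identity and also acts in neural crest derivatives. Zeb2 (chromosome 2, 44873644 to 45007407) had 550, 189 and 419 counts, the second highest number after Maf, yet only 2.15, 0.812 and 1.84 TPM, because the length in the deposited FPKM is 34444 bp. The mean was 1.60 ± 0.700 TPM (limma adjusted p = 0.421), with replicate 2 below the others. Zeb1, the relative, averaged 1.57 ± 0.405 TPM, and neither ZEB gene was called. On the log2(TPM + 1) scale Zeb2 minus Zeb1 was -0.01 ± 0.33.

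RUNX1 binds DNA with its partner CBFβ. Runx1 (chromosome 16, 92398354 to 92623037) had 120, 12 and 14 counts and 0.877, 0.0964 and 0.115 TPM. Replicate 1 held most of the counts, and no library reached 1 TPM with the deposited gene length (mean 0.363 ± 0.446 TPM, limma adjusted p = 1). Cbfb, which is widely expressed, was the 1 called gene of the 5 on the RUNX list, at 25.5 ± 4.59 TPM. Runx1 ranked 4 on that list.

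**Figure D2:**
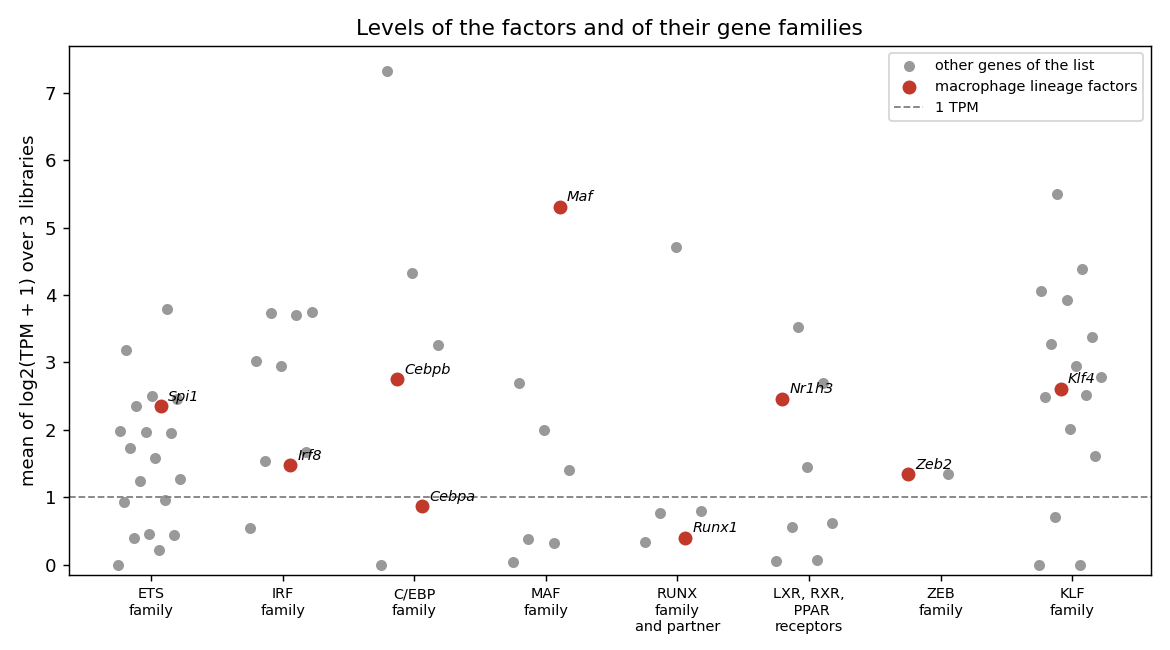
Mean of log2(TPM + 1) over the 3 libraries for every gene of the 8 family lists, with the 9 factors in red and a dashed line at 1 TPM. Maf heads its family, whereas Spi1, Irf8, Cebpb, Nr1h3 and Klf4 lie below at least 2 relatives.

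In the order of mean levels, Maf was followed by Cebpb, Klf4, Spi1, Nr1h3, Irf8, Zeb2, Cebpa and Runx1. Of the 8 pairs of neighbours, 4 differed with the same sign in all 3 libraries. Maf exceeded Cebpb by 2.56 ± 1.16, Nr1h3 exceeded Irf8 by 0.99 ± 0.28, Zeb2 exceeded Cebpa by 0.47 ± 0.45 and Cebpa exceeded Runx1 by 0.47 ± 0.13 on the log2(TPM + 1) scale. The exact sign-flip permutation test, two-sided, gave p = 0.25 for each, the smallest that 3 libraries allow, and 0.5 after adjustment over the 8 pairs. The differences of Cebpb from Klf4, Klf4 from Spi1, Spi1 from Nr1h3 and Irf8 from Zeb2 changed sign between libraries. Pairs that are not neighbours were not tested. Among them Cebpb had more TPM than Spi1 in each library, though in replicate 1 only by 2.06 against 2.02 TPM. Without gene length the direction was the other one in each library. Cebpb stood at 1.25, 3.12 and 11.8 CPM and Spi1 at 3.52, 6.36 and 18.9 CPM.

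The middle of that order also depends on gene length. The length that the deposited FPKM implies for a gene was compared with GENCODE M21. It lay within 5% of the summed length of the gene's distinct exons, with overlapping exons counted again, for 93.1% of 25973 genes, and within 5% of the merged exon length for 41.2%. For Nr1h3 the implied length was 5182 bp where merged exons cover 2515 bp, and for Zeb2 34444 against 19942 bp. For Spi1 it was 4332 against 2695 bp, and for Cebpb, which has a single exon, 1504 bp in both. The distinct exons of Spi1 sum to 3305 bp in GENCODE M21, so they do not account for its implied length. For Cebpa the implied length was 4787 bp, more than the 2636 bp that the gene spans and that its merged exons cover. Cebpa stood at 2.20, 0.999 and 0.652 TPM with merged lengths and was not called. With merged lengths Nr1h3 came second at 8.04 ± 4.19 TPM, and Cebpb was the fourth at 6.34 ± 6.40 TPM. Cebpb then missed the threshold (limma adjusted p = 0.0565). With the length of the longest transcript Zeb2 averaged 4.06 ± 1.73 TPM and passed (limma adjusted p = 0.0454). Maf was first, Cebpa eighth and Runx1 last with all 3 lengths. Runx1 in replicate 1 was above 1 TPM with both other lengths, at 1.07 TPM with merged and 1.81 TPM with longest lengths.

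**Figure D3:**
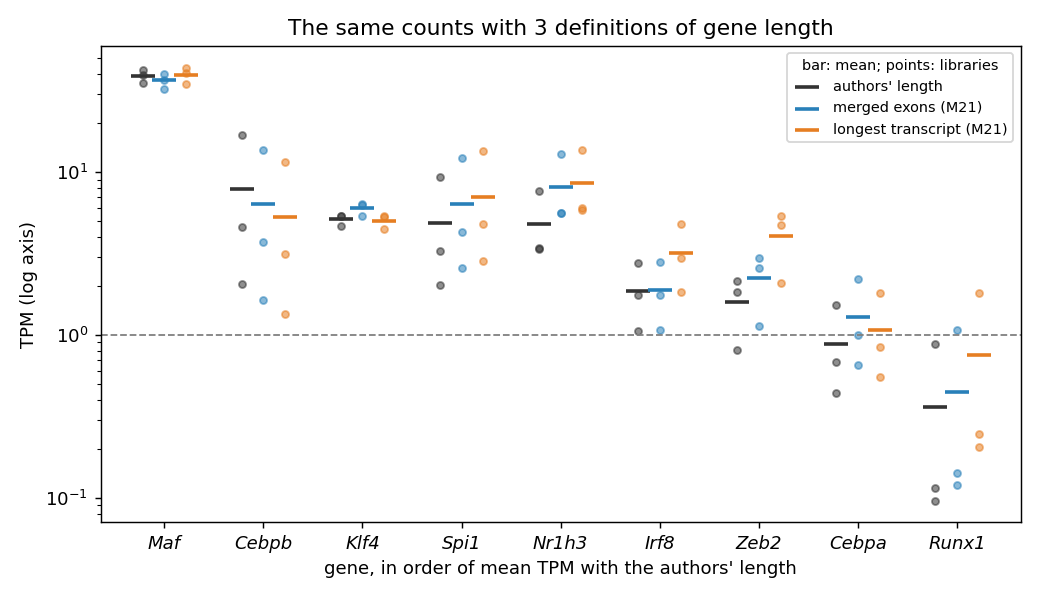
TPM on a log axis, computed from the same counts with the authors' gene length, the merged exon length and the longest transcript length, with a bar at the mean and 1 point per library. Maf keeps its place near 38.9 TPM, Nr1h3 and Zeb2 are higher with both other lengths, and Cebpb is lower.

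The factors did not share 1 pattern across libraries. Replicate 3 was highest in CPM, which uses no gene length, for 6 factors (Spi1, Irf8, Cebpb, Maf, Nr1h3 and Klf4), and replicate 1 for the other 3 (Cebpa, Runx1 and Zeb2). Zeb2 was close in replicates 1 and 3, at 29.8 and 29.7 CPM, against 12.5 CPM in replicate 2. For 8 of the 9 the 95% Poisson interval of the highest library lay above that of the lowest, and Klf4 was the exception. These intervals cover counting error only. The highest library exceeded the lowest 9.10-fold in TPM for Runx1, 8.14-fold for Cebpb, 4.61-fold for Spi1, 3.44-fold for Cebpa, 2.65-fold for Zeb2, 2.63-fold for Irf8, 2.28-fold for Nr1h3, 1.22-fold for Maf and 1.16-fold for Klf4.

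Marker lists also differed between libraries. The mean log2(TPM + 1) of the 18 macrophage markers was 5.18, 5.29 and 5.54 in replicates 1, 2 and 3, highest in replicate 3. Their summed level was 9010, 5794 and 6583 TPM, highest in replicate 1, and Lyz2 was most of that sum. Taking the mean off each library left Maf at -0.02 ± 0.07, Cebpb at -2.58 ± 1.10, Klf4 at -2.72 ± 0.14, Nr1h3 at -2.87 ± 0.40 and Spi1 at -2.98 ± 0.73. The SD was smaller than before for 5 factors and larger for 4. Replicate 3, where Spi1, Cebpb and Nr1h3 were highest, was also highest for 10 neuronal markers, summed to 88.6, 85.2 and 350 TPM with Rbfox3 and Prph at 0 in at least 1 library, for 10 endothelial markers (19.5, 32.5 and 35.7 TPM) with Cdh5, Tek, Vwf and Tie1 so, and for 7 erythroid markers (21791, 29998 and 51507 TPM). Replicate 2 was highest for 10 neutrophil markers (20.3, 417 and 148 TPM, with Cxcr2 and Elane at 0 in a library) and 10 monocyte markers (8.94, 237 and 33.7 TPM), and no factor was highest there in CPM. In TPM, Klf4 was, by a little, at 5.40 TPM against 5.34 TPM in replicate 3. Replicate 1, where Cebpa, Runx1 and Zeb2 were highest, was highest for the 12 epithelial markers (2729, 1883 and 1983 TPM) and the 12 hair cell markers (1064, 680 and 610 TPM, with Cdh23 at 0 in a library). Melanocyte markers summed to 582, 707 and 715 TPM and glial markers to 8579, 6858 and 9701 TPM, highest in replicate 3, though by mean level they were highest in replicates 2 and 1. The part of these cell types in the factors' differences was not tested.

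**Figure D4:**
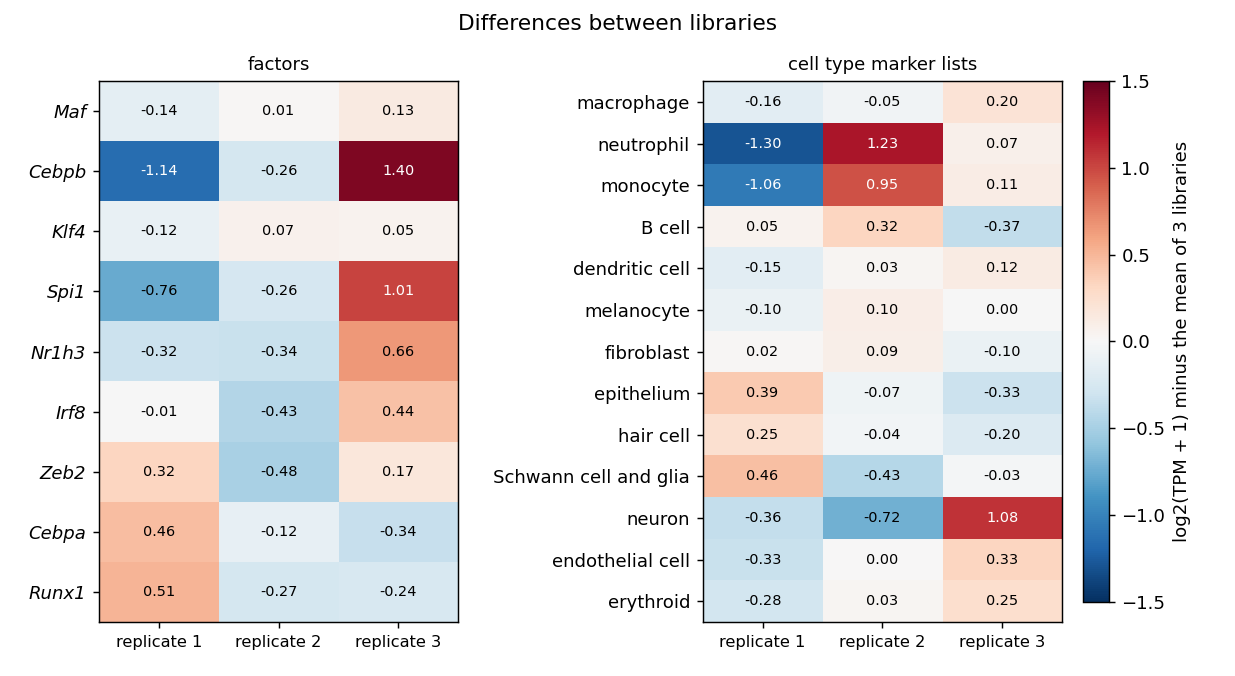
Each library's log2(TPM + 1) minus the mean of the 3 libraries, for the 9 factors at left and the mean over each marker list at right, with red above and blue below the mean. Cebpb at 1.40 and Spi1 at 1.01 in replicate 3 stand out among the factors, and neutrophil markers at 1.23 in replicate 2 and neuronal markers at 1.08 in replicate 3 among the lists.

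Spi1 and Nr1h3, both highest in replicate 3, lie 68304 bp apart on chromosome 2, with 2 genes between them. Mybpc3, a heart muscle gene, had 0, 0 and 44 counts, and Madd, a signalling gene that ends 223 bp before Nr1h3, had 301, 144 and 564. Both were highest in replicate 3 as well. On the other side of Spi1, 10765 bp away, the noncoding gene Gm57424 had 141, 102 and 62 counts and was lowest in replicate 3. Acp2, a lysosomal phosphatase gene 50 bp beyond Nr1h3, had 469, 777 and 635 counts and was highest in replicate 2. By Euclidean distance of log2(TPM + 1) over the 3 libraries, among 117 genes of the family and regulator lists, the gene nearest to Spi1 was Nr1h3, at 0.606. Cebpb was nearest to Nr4a1 (0.832), Nr1h3 to Elk4 (0.452), Irf8 to Tfe3 (0.197), Zeb2 to Zbtb46 (0.333), Maf to Klf9 (0.387), Klf4 to Mef2a (0.247), Cebpa to Runx1t1 (0.407) and Runx1 to Spdef (0.332).

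RefSeq promoter windows, 250 bases before to 50 after a transcript start on GRCm38.p6, were at hand for 7 of the 9 factors, all but Spi1 and Maf. They were searched on both strands for 7 motifs, and no matches within a window overlapped. The windows of Cebpb and Nr1h3, which were highest in replicate 3, and of Cebpa and Runx1, which were highest in replicate 1, are given 5′ to 3′ on the gene's strand, with matches in capitals (chr2:167688665-167688964, chr2:91195067-91195366, chr7:35119043-35119342 and chr16:92826025-92826324). For Nr1h3 and Runx1 it is the first start in the table.
Cebpb: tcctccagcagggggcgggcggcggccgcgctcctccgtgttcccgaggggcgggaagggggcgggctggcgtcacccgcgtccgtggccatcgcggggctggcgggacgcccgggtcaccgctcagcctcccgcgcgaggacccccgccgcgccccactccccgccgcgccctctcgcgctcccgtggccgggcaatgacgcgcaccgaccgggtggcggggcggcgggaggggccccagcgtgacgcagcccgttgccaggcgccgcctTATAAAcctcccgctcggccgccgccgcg
Nr1h3: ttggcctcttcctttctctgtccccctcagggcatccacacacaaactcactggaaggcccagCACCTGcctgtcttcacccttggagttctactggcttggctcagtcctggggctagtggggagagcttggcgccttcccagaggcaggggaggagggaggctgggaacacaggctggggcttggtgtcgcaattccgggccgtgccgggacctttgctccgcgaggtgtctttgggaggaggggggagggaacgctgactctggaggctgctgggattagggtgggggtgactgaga
Cebpa: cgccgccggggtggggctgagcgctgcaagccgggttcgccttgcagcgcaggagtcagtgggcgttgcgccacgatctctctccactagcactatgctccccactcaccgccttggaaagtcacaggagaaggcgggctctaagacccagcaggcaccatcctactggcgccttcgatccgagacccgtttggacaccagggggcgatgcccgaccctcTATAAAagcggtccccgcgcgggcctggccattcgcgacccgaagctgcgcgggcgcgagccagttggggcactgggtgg
Runx1: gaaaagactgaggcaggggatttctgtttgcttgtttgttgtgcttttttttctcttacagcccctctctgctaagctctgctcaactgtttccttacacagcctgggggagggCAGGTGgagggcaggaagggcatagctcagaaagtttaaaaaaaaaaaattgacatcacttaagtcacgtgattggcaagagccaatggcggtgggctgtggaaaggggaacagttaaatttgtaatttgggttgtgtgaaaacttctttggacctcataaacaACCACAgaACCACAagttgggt
The Cebpb window holds the TATA box letters TATAAA 21 bases downstream of the annotated start and the Cebpa window 30 bases upstream, letters found in 13.6% of all 32851 windows. The Runx1 window holds the RUNX letters TGTGGT on the other strand at 28 and 36 bases downstream, found in 16.8% of all windows. Both the Runx1 and the Nr1h3 window hold the ZEB letters CACCTG (20.2% of windows), 136 bases upstream on the other strand and 187 bases upstream. None of the 4 windows printed holds the PU.1 letters GAGGAA (28.3% of windows), the C/EBP letters TTGCNNAA (10.8%), the LXR letters AGGTCA (16.3%) or the MAF letters TGCTGA (19.5%). TATAAA and CACCTG each stand in 1 window of each pair. In windows not printed, GAGGAA stands 10 bases downstream of the second start of Nr1h3, 46 bases upstream of the second start of Runx1, and in all 4 windows of Zeb2. The first of these Zeb2 windows also holds TTGCNNAA, the first Irf8 window TATAAA, the second Irf8 window CACCTG and TGCTGA, and the Klf4 window none of the 7 motifs.

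Genes known to be bound or driven by these factors were listed from general knowledge and counted by the same test. Of 20 genes listed for PU.1, 13 were called above 1 TPM, where 37.6% of all genes tested and 50.5% of protein-coding genes were. The counts for the other target and receptor lists, all of protein-coding genes, are to be read against the same shares. Lyz2 (lysozyme) averaged 4616 ± 1632 TPM, Ctss (cathepsin S) 907 ± 294, Tyrobp (the DAP12 adaptor) 248 ± 79.5 and Fcgr3 (an Fc receptor) 66.2 ± 11.6 TPM. Csf1r, the receptor for macrophage growth factor, stood at 5.32, 16.3 and 17.0 TPM. Spi1 minus Csf1r was -1.06, -2.02 and -0.80 on the log2(TPM + 1) scale, so Spi1 was the lower of the pair in each library. Lyz2, Ctss and Fcgr3 were highest in replicate 1, where Spi1 was lowest, and Tyrobp and Csf1r were highest in replicate 3. Lyz2, Ctss, Tyrobp and Csf1r are among the genes that are also on the macrophage marker list. The counts of the PU.1 list and of those markers are therefore not independent. Target lists also share genes with each other, such as Ctss for PU.1 and IRF8 and Lyz2 for PU.1 and the C/EBP proteins.

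For LXR, 11 of 12 genes were called, led by Apoe (apolipoprotein E) at 2401 ± 1017 TPM. Scd2, a fatty acid desaturase, was uneven at 148, 116 and 0.734 TPM, Smpdl3a averaged 83.4 ± 28.8 and the lipid transfer gene Pltp 35.0 ± 12.6 TPM. For MAF, 5 of 8 were called, with the complement genes C1qb at 563 ± 125, C1qa at 229 ± 153 and C1qc at 142 ± 46.0 TPM and the mannose receptor gene Mrc1 at 11.0 ± 2.05 TPM. The 3 C1q genes and Folr2, a folate receptor, were highest in replicate 3, as Maf was, but Mrc1 and Il10 were highest in replicate 2 and Cd36 and Cd163 in replicate 1. The 3 C1q genes, Mrc1 and Cd163 are also on the macrophage marker list, so the MAF count is not independent of those markers.

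For IRF8, 7 of 12 were called. Cst3 (cystatin C) averaged 1739 ± 138 TPM, Ctss as above, the antigen-processing gene Ifi30 85.8 ± 32.6 and the MHC class II chaperone Cd74 51.2 ± 4.14 TPM, while Tlr9 and Il12b had no count. For the C/EBP proteins, 2 of 12 were called, Lyz2 and Cebpd, and Il6 had no count. Il1b had counts in replicate 2 alone, at 11.0 TPM. Of 14 receptors and cytokines that act upstream, 7 were called, among them Tgfbr2 at 21.5 ± 6.46, Ifngr1 at 17.2 ± 1.93, Csf1r at 12.9 ± 6.55 and Il34, a second ligand of that receptor, at 10.9 ± 8.50 TPM. Csf2 had no count.

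**Figure D5:**
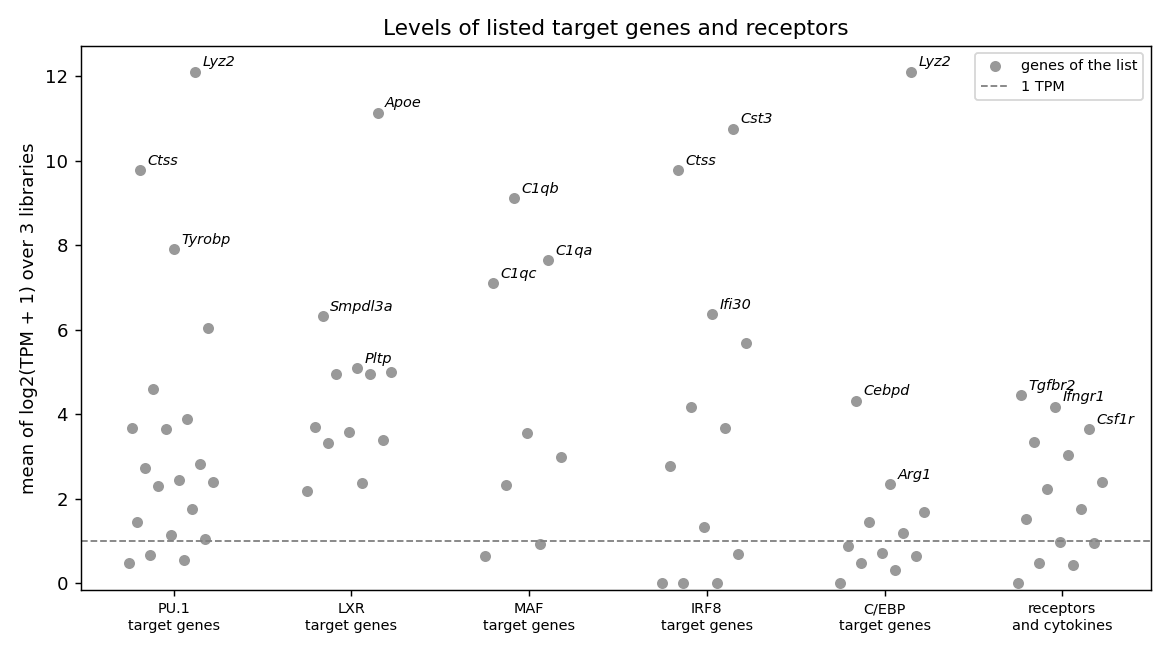
Mean of log2(TPM + 1) over the 3 libraries for the listed target genes of PU.1, LXR, MAF, IRF8 and the C/EBP proteins and for upstream receptors and cytokines, with a dashed line at 1 TPM and the 3 highest genes of each list named. Most LXR genes lie well above the line, and most C/EBP genes lie near or below it.

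Of 27 other regulators known from macrophages, 12 (44.4%) were called above 1 TPM, where 37.6% of all genes tested and 50.5% of protein-coding genes were. The inhibitors of basic helix-loop-helix proteins Id3, Id2 and Id1 averaged 617 ± 70.7, 155 ± 64.9 and 118 ± 29.9 TPM and the hypoxia factor Hif1a 58.4 ± 28.0 TPM. Gata6, the factor of peritoneal macrophages, had no count.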

How the data were processed

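Messenger RNA was measured in 3 libraries of 1 group. The authors deposited raw counts per gene and FPKM for each library, per the file headers. FPKM is scaled by gene length and library total. The submitters' processing notes name HISAT2, StringTie, edgeR and the build GRCm39, with no versions or roles. The sources used here do not give strand use or the handling of reads that match several genes.

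The deposited FPKM values were rescaled to the same total per library (TPM) and analysed as log2(TPM + 1). Levels were tested with limma 3.58.1 (R 4.3.3) as an intercept with a trended prior variance, against 1 and 10 TPM, one-sided, at a Benjamini-Hochberg adjusted p of 0.05 over all genes that at least 1 library detected. With 1 group there is no contrast for a count test. The procedure was run on simulated counts with the same dispersion for every gene, so genes more uneven than others were not modelled. CPM intervals are exact Poisson at 95%. Gene lengths were compared with GENCODE M21 by gene ID, and 95.3% of genes tested had one. A gene symbol with several rows was taken as the protein-coding row with most counts. Promoters are RefSeq's. The alternatives were another pseudocount, CPM, the scaling factors of edgeR 4.0.16 (TMM) and of DESeq2 1.42.0, other filters, protein-coding genes alone, no trend, each library left out and, chosen after seeing the data, 2 other gene lengths.

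The members and lists were chosen with earlier results of these data known. The text names the 9 members, genes overlapping or next to them where a result turns on them, up to 4 genes with the highest mean TPM per list, single relatives and partners, and each member's nearest gene in level. Scd2, Folr2, Il10, Cd36, Cd163, Il1b, Il6, Tlr9, Il12b, Csf2, Gata6 and the markers listed at 0 were named after their values were seen. So were Fos, Fosb, Jun, Egr1 and Atf3. A few genes that this rule or the lists include are not reported here.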

Additional observations from a re-analysis of the deposited data

How the results depend on the processing

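The 5 members above 1 TPM (37.6% of all genes tested) became 2 with a pseudocount of 5 (33.1%) and 2 with no filter on low counts (12.1%). They became 4 with no trend (41.2%) or merged lengths (39.8%), and 6 in CPM (43.4% above 1 CPM). With a library left out they became 3 without replicate 1 (33.9%), 4 without replicate 2 (38.9%) and 2 without replicate 3 (39.4%). Scaling by TMM or by DESeq2's factors left 5 (37.8% with either). Testing only genes with a count in all 3 libraries (64.7%) or only protein-coding genes (58.7%) also left 5. The 1 member above 10 TPM (14.7% of all genes tested) became 2 above 10 CPM (24.2%), where Zeb2 joined Maf. The 4 neighbour pairs of one sign became between 4 and 7 with a library left out, with 7 without replicate 3. A pair of one sign in all libraries keeps it when a library is left out. This count could therefore only stay or rise. On the log2 scale the difference from 1 TPM was -0.13 for Cebpa, which was not called, against 0.13 over protein-coding genes alone, -0.36 to 0.041 with a library left out (above 0 without replicate 3), 0.13 with merged and 0.0043 with longest lengths. It was -0.60 for Runx1. In CPM, which has another threshold of 1 CPM, the differences were 0.42 for Cebpa and 0.58 for Runx1. No paired analysis was possible because the labels give 1 group. The cause of these changes was not tested. Calls for Spi1, Cebpb and Nr1h3 were lost under 5, 7 and 4 of the 14 alternatives. Irf8 passed in CPM (limma adjusted p = 0.0154) and Zeb2 in CPM and with the longest length. Cebpa and Runx1 rest on 12 to 120 counts a library, so small differences in them were not detectable at this depth.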

Other observations

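Regulators of other blood lineages were called above 1 TPM for 5 of 20 genes, where 37.6% of all genes tested and 50.5% of protein-coding genes were. Gfi1, known from granulocytes, lymphocytes and hair cells, was the highest at 46.8, 55.4 and 0.622 TPM. Ebf1, which acts in B cells and in mesenchyme, averaged 16.0 ± 5.59, Foxo1 11.5 ± 1.53 and Tcf7, of T cells, 11.2 ± 6.28 TPM. Gata1, of red cells and platelets, stood at 0, 4.77 and 0 TPM, and Pax5, the B cell factor, had no count. Immediate early regulators, which respond within minutes to stimuli such as cell handling, were called for 9 of 15 genes, to be read against the same shares. Fos, at 0.812 ± 0.731 TPM, Fosb, Jun, Egr1, Atf3 and Klf2 were not called. Ier3 averaged 112 ± 13.9, Jund 79.9 ± 40.6, Ier2 75.4 ± 39.6 and Dusp1 23.0 ± 12.2 TPM, and the last 3 were lowest in replicate 2.

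B cell markers were called for 2 of the 7 analysed, Cd79a at 137 ± 14.4 and Ighm at 569 ± 291 TPM, while Ms4a1 had no count. Dendritic cell markers were called for 2 of 8, of which 5 had a count and were tested. As a share of the genes listed, neither list exceeded the 37.6% of all genes tested. Of tested genes alone, the 2 of 5 dendritic cell markers were slightly more than that share, and the 2 of 6 B cell markers were less.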
